A study of Mus musculus with 7 samples.

Results

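Gene expression in the left plantaris 10 days after reloading (d10) was set against the arrays taken 7 and 14 days after it (d7 and d14), which makes up 3 of the series' 7 arrays. The muscle came from male C57BL/6J mice aged 5 months. All of them had first spent 2 weeks in hind limb suspension, which takes the load off the calf and lets the muscle shrink, and were then returned to normal walking. Each time point was 1 Affymetrix Mouse Gene 1.0 ST array of RNA pooled from 6 animals, so all 3 arrays are reloaded muscle and none is a mouse that was never suspended. With 1 array per day there is no error, no p-value and no test, and precision is limited by how few arrays there are. Values are intensities, the brightness of a gene's probes on a linear scale, and the difference at d10 is the log2 intensity at d10 minus the mean of the log2 intensities at d7 and d14. A gene was called higher or lower when this difference was at least 1.5-fold (0.585 on the log2 scale) and d10 lay outside both flanking arrays.

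The plantaris is a calf muscle of mostly fast fibres, and during regrowth it holds, besides its fibres, connective tissue cells, vessels, nerve and a changing number of blood-borne cells. Granulocytes, the neutrophils and eosinophils, store antimicrobial proteins in granules, and they make these transcripts mostly while they mature in bone marrow. Bone marrow also produces red cells and other leukocytes, and bone is resorbed by osteoclasts and built by osteoblasts. Dividing cells of any type express cyclins, spindle proteins and the histones that package newly made DNA.

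A gene was kept if it reached the median intensity of all rows on at least 1 of the 7 arrays, which 12102 of 19938 genes did. Of these 12102 genes, 79 were higher at d10 (0.653% of all) and 20 were lower (0.165%). By a 2-fold rule 24 were higher (0.198%) and 2 lower (0.0165%). Of the 79 higher genes, 20 belonged to the neutrophil and eosinophil lists and 59 did not. The rule already placed d10 above d7 and d14, and d10 was the highest of all 7 arrays for 70 of the 79. The share of all kept genes with d10 highest was not counted. In 24 genes d10 was at least 1.5-fold above each of the 6 other arrays (0.198% of all kept genes). Outside the granulocyte lists those were 8, namely Ly6a2, Ibsp, Ctse, Ifitm6, F630028O10Rik, Cd52, Clec3a and Igkv4-55. In 6 of the 79 the value reached the filter at d10 alone, namely Ibsp, Mmp8, Trem3, Igkv4-55, Nkg7 and Sla, so that their being kept and their being high are not independent. At the edge of the rule, Sla was just inside at 0.59 and Zfp72 just outside at 0.58. At the other edge, Gm10100 was just inside at -0.59 and Rph3a just outside at -0.58.

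**Figure D1:**
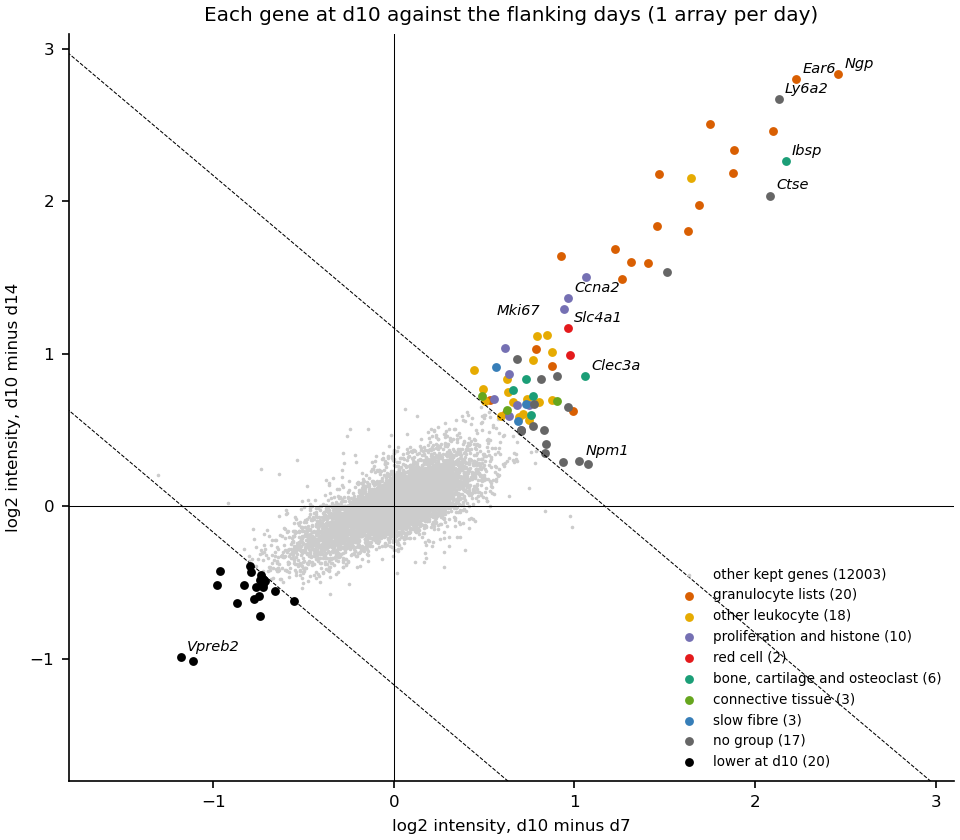
Log2 intensity at d10 minus d7 (x axis) against d10 minus d14 (y axis) for each kept gene, 1 point per gene. Coloured points are the 79 higher and 20 lower genes by group, and the dashed lines mark a mean difference of 1.5-fold. Ngp, Ear6, Ly6a2 and Ibsp lie at the upper right, each farther above d14 than above d7, while Npm1 lies 1.03 above d7 and 0.30 above d14.

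Muscle fibre genes were close on the 3 arrays. All 8 skeletal muscle fibre markers were bright, and their differences at d10 lay between -0.02 and 0.10. Acta1, the actin of the thin filament, had intensities of 20541 at d7, 21180 at d10 and 20836 at d14. Ckm, the muscle creatine kinase, had 18677, 18702 and 18949 in the same order. The 20 fast fibre contractile genes had a median difference of 0.02, as did 64 oxidative phosphorylation genes, and the median over all kept genes was 0.02 as well. No gene of these lists was called in either direction. The array median intensity was 128.1 at d10, 131.8 at d7 and 129.3 at d14. Intensities were spread more widely at d10. The 25th percentile was 54.9 at d10, 57.6 at d7 and 56.3 at d14, and the 75th was 361, 341 and 348. The robust SD over genes was 0.111 for the difference at d10 and 0.105 for d7 minus d14. These are unlike measures, since the first sets 1 array against a mean of 2 and the second 1 array against 1. In either direction, d7 and d14 differed by at least 1.5-fold in 23 genes (0.19%).

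Granulocyte genes were 6 of the 9 genes with the largest differences, beside Ly6a2, Ibsp and Ctse. Ngp, a neutrophil granule protein, had intensities of 401 at d7, 2205 at d10 and 308.8 at d14, a difference of 2.65 or 6.27-fold. Ear6, an eosinophil ribonuclease, had 135.0, 632 and 90.6, a difference of 2.51. S100a8 (2.28) and S100a9 (2.11), which together form calprotectin, the siderophore-binding Lcn2 (2.13) and the resistin-like Retnlg (2.03) followed. Every one of these 6 was highest at d10 among the 7 arrays. The set also held the primary granule enzymes Mpo (1.46) and Elane (1.28), with Elane at 327 at d7, 622 at d10 and 199.6 at d14. The eosinophil list was not uniform, since Ear6 and Prg2 (1.72) were higher while the surface lectin Siglecf was at -0.25. In the neutrophil list 18 of 25 kept genes were higher, against 0.653% of all kept genes. All 25 lay above both flanking arrays, against 43.6% of all kept genes, although only 22 of them passed the filter without d10. With the 15 members below the filter included, 20 of 40 were past the threshold, with a median of 0.58. Of the 40, 30 lay above both flanks, against 31.0% of all genes on the array. The Ear and Ly6 families hold close copies that share probe sequence, so the single members are uncertain. In pooled whole muscle, more or fewer cells of a type and more or less RNA per cell cannot be told apart.

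**Figure D2:**
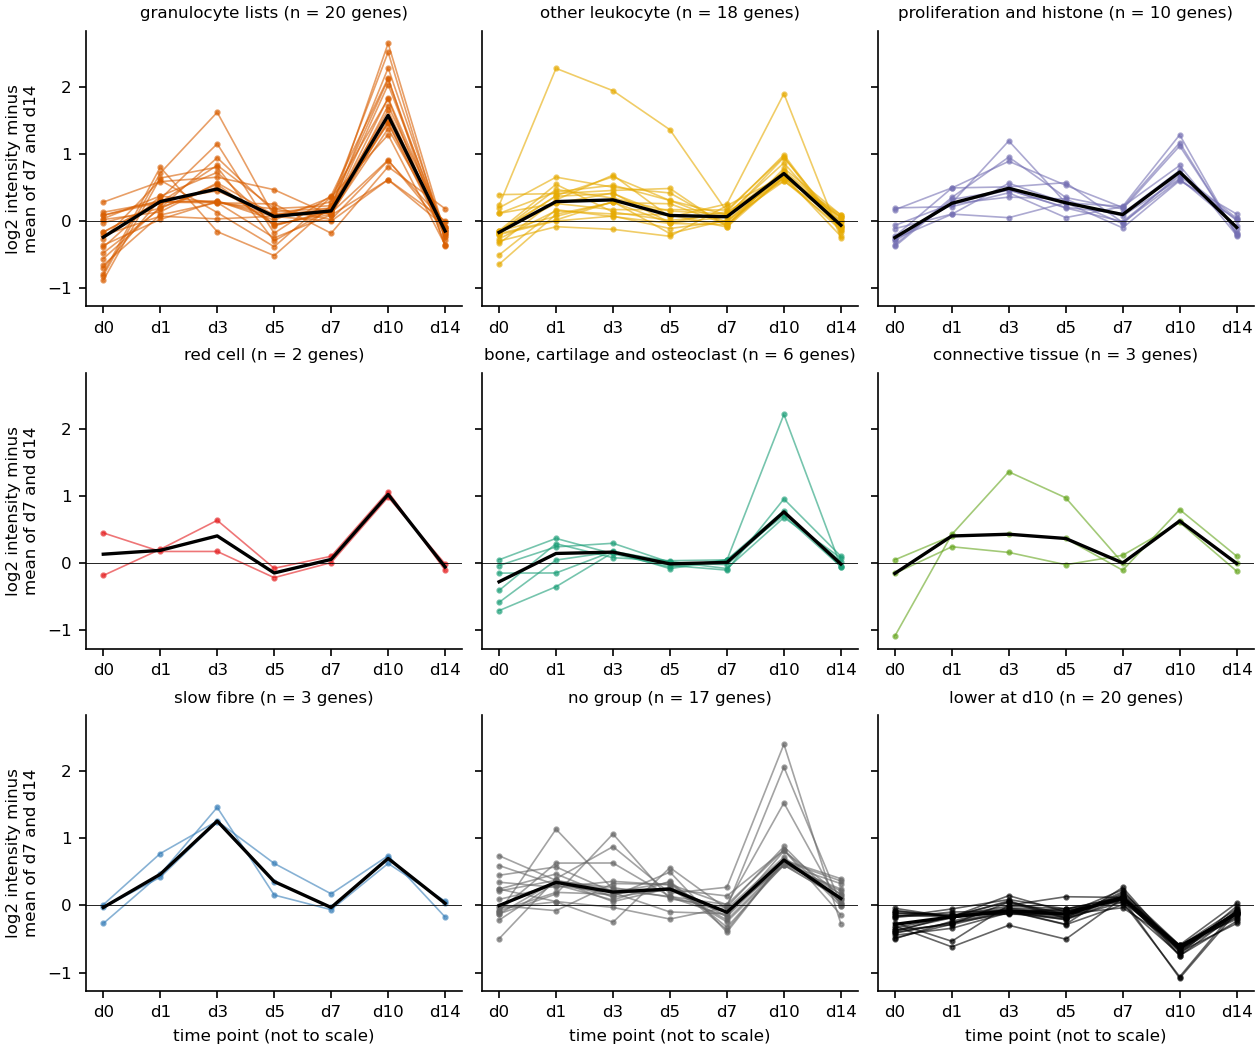
Log2 intensity minus the mean of d7 and d14 (y axis) at the 7 time points (x axis, not to scale) for the 79 higher genes in 8 groups and the 20 lower genes. Thin lines are single genes and the thick black line is the median of each group. Most groups peak at d10, the 3 slow fibre genes are higher at d3 than at d10, and the lower genes dip at d10 and most have their highest value at d7.

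The 59 other higher genes had a median difference of 0.72, or 1.65-fold, and 41 of them were at least 1.5-fold above each of d7 and d14 taken singly. They were sorted by known roles into groups made after the values were seen, so the groups describe the set and support nothing. Leukocyte genes made up 18, genes of dividing cells and histones 10, bone, cartilage and osteoclast genes 6, connective tissue genes 3, slow fibre genes 3 and red cell genes 2, which left 17 without a group, among them Nxpe2, which is on the erythroid precursor list.

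Dividing cells were marked by Ccna2, the cyclin A of S phase and G2, with intensities of 121.6 at d7, 237 at d10 and 92.0 at d14, a difference of 1.17 or 2.24-fold. Mki67, the proliferation antigen Ki-67, had 166.1, 319 and 129.7, a difference of 1.12. Both lay farther above d14 than above d7, at 1.37 and 0.96 for Ccna2 and 1.30 and 0.94 for Mki67. The histone gene H2ac15 had 509 at d7, 1066 at d10 and 376 at d14, a difference of 1.28, and the histone genes H2bc3 (0.75), H1f5 (0.71) and H4c6 (0.62) were higher as well. The spindle checkpoint protein Mad2l1 stood at 0.67, the cyclin Ccnb2 at 0.63, the kinase subunit Cks2 at 0.83 and Rpa3, of the protein that coats single-stranded DNA, at 0.60, although a further row of Rpa3 stood at 0.02. Mad2l1 had 169.0 at d7, 271 at d10 and 170.9 at d14.

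Of 39 mitosis genes on the array, the filter kept 12, with a median of 0.34. Of these 11 lay above both flanks, against 43.6% of all kept genes, and 4 were called higher, against 0.653%. Without the filter 26 of 39 lay above both flanks, against 31.0% of all genes on the array, and 7 were past the threshold, and the median was 0.19. Top2a, the topoisomerase that untangles replicated DNA, stood at 0.66 and Kif11, a spindle motor, at 0.64, both below the filter. Cdc20, which activates the anaphase-promoting complex, was at -0.01. The 20 kept DNA replication genes had a median of 0.10 with none called, from Lig1, a DNA ligase, at -0.27 to Mcm4, of the replicative helicase, at 0.47. All 9 kept histone genes of the list lay above both flanks, against 43.6% of all kept genes. Their median was 0.18 and 2 were called higher, against 0.653% of all kept genes. Histone genes are near-identical copies, so which of them differed is uncertain.

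These genes were not confined to d10. H2ac15 reached 1001 at d3 against 1066 at d10, Mki67 284 against 319 and Ccnb2 254 against 265. The d3 array was second to d10 for 8 of the 10 genes of this group, and d10 exceeded d3 by a median of only 0.24. For the granulocyte genes the median gap between d10 and d3 was 1.01, and for the bone, cartilage and osteoclast group 0.64.

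Promoters are shown for the 3 called mitosis genes that the promoter table holds (Mki67, Ccnb2 and Mad2l1), for the histone gene H2bc3 and for Ibsp, the highest gene of bone. H2bc3 was picked with its motifs in view, and the counts for the whole group of dividing cells and histones follow. Each line gives the 250 bases before the RefSeq start in GRCm38.p6, on the gene's own strand. Capitals mark CCAAT, a box bound by NF-Y, on either strand (ATTGG on the other), and TTTGAA on either strand, one form of the cell cycle homology region found in genes of the late cell cycle. No capitals of the one motif overlap the other.
Mki67 (chr7:135716380-135716629, minus strand): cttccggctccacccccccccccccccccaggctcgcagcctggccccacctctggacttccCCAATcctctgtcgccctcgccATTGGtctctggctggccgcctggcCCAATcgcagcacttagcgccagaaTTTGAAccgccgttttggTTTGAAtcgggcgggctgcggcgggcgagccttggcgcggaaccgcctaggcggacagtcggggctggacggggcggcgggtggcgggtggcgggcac
Ccnb2 (chr9:70421555-70421804, minus strand): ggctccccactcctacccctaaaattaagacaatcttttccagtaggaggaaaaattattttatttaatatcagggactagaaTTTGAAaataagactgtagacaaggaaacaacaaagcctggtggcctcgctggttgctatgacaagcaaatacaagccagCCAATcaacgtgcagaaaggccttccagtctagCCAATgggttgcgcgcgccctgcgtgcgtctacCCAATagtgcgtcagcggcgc
Mad2l1 (chr6:66534971-66535220, plus strand): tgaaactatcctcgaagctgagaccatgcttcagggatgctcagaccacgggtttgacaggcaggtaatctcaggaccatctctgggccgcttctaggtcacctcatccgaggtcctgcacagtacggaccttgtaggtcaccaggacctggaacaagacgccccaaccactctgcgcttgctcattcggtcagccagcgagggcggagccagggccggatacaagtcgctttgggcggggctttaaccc
H2bc3 (chr13:23746484-23746733, plus strand): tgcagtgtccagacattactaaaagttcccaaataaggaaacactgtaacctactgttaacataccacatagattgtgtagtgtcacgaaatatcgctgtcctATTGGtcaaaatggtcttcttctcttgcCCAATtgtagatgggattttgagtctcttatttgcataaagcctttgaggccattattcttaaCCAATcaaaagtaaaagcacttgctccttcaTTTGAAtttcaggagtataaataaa
Ibsp (chr5:104299037-104299286, plus strand): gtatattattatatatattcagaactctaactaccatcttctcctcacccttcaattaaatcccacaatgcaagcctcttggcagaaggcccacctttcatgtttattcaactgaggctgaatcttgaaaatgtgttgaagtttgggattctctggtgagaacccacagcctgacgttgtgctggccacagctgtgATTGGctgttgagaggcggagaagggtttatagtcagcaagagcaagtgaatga
Mki67 and H2bc3 held 3 CCAAT matches each, and so did Ccnb2, at 87, 54 and 21 bases before the start. Mad2l1 held neither motif. Ibsp held 1, on the other strand 54 bases before the start, and no TTTGAA.

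The box CCAAT occurred in 33.8% of all 32851 promoters of this length and TTTGAA in 15.99%. Promoters were found for 54 of the 79 higher genes, 63 windows in all, of which 27 (42.9%) held CCAAT and 13 (20.6%) TTTGAA. Of the 10 genes of dividing cells and histones 9 had a promoter in the table, of which 7 held CCAAT and 4 TTTGAA, and Mad2l1 and H4c6 held neither. Over the mitosis list as a whole, whatever its values, 28 of 39 windows (71.8%) held CCAAT. The letters GAGGAA, a core bound by the myeloid factor PU.1, was in 23.3% of all promoters, in 10 of 46 windows of the non-granulocyte genes (21.7%) and in 10 of 17 of the granulocyte genes (58.8%). A match describes the letters and is not a binding site.

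Bone and cartilage were represented by few genes, of which Ibsp passed the filter through d10 alone. Ibsp, the bone sialoprotein of mineralised matrix, had intensities of 69.8 at d7, 314 at d10 and 65.4 at d14, and between 45.1 and 76.0 on the remaining arrays. Its difference was 2.22, or 4.65-fold, and d10 exceeded each other array by at least 2.05. Clec3a, a lectin-like protein of cartilage, had 161.3 at d7, 336 at d10 and 186.1 at d14, a difference of 0.96. The collagenase Mmp13 stood at 0.78. Genes used by osteoclasts were the acid phosphatase Acp5 (0.71), the collagen-degrading protease Ctsk (0.68), the carbonic anhydrase Car2 (0.75) and the gelatinase Mmp9 (0.91), which is also on the neutrophil list. Ctsk had 180.9 at d7, 306 at d10 and 202 at d14. All 4 lay above both flanks by at least 0.60, and d10 was the highest array for each.

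The medians of these lists were near that of all kept genes, although single members were not. Of 12 kept osteoclast genes 4 were higher, against 0.653% of all kept genes. The other 8 lay between Ocstamp, a fusion protein of osteoclasts, at -0.15 and the proton pump subunit Tcirg1 at 0.08, so that the list median was 0.06. Over all 17 osteoclast genes on the array 5 were past the threshold, with a median of 0.02. Of 6 kept bone matrix genes 1, Ibsp, was higher, and only 5 of the 6 passed the filter without d10. The osteoblast factor Sp7 (0.00) and the osteocyte protein Dmp1 (-0.08) were below the filter. The 15 kept cartilage genes had a median of 0.00, with the collagens Col2a1 at -0.19, Col9a1 at -0.31 and Col10a1 at -0.56. The summed intensity of the 7 osteoclast markers was 974.7 at d7, 1361 at d10 and 910 at d14, and that of the 5 osteoblast markers on the array 654, 978 and 675. Most of the latter difference was Ibsp, and the other 4 osteoblast markers summed to 584, 664 and 609. For 6 chondrocyte markers the sum was 3711, 4232 and 4209, although 4 of the 6 lay below both flanks and 1 above, with a median of -0.10. The part of bone and cartilage cells in the other differences at d10 was not tested.

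Red cell genes were led by Slc4a1, the anion exchanger of the red cell membrane, with 368 at d7, 717 at d10 and 319 at d14, a difference of 1.07. Car1, the carbonic anhydrase of red cells, had 201, 395 and 198.6, a difference of 0.98. Of 10 kept genes of the erythroid precursor list 3 were higher, against 0.653% of all kept genes. The third was Nxpe2 (0.81), and the list median was 0.10. Of the 9 members below the filter, Rhag, of the Rh complex, stood at 1.09 and the blood group protein Kel at 0.82. Among the kept members, Alas2, the first enzyme of heme synthesis in red cells, was at -0.02 and the erythroid factor Klf1 at 0.13. Summed over 6 erythroid precursor markers the intensity was 1972 at d7, 2461 at d10 and 2070 at d14. Platelet genes had a median of 0.05 over 9 kept genes, 1 of them lower (Treml1, a receptor of platelet granules, at -0.59) and the chemokines Pf4 and Ppbp at 0.13 each.

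Leukocyte genes outside the granulocyte lists included receptors and signalling proteins that granulocytes share with monocytes. Ifitm6, of the interferon-induced transmembrane family, had 148.2 at d7, 463 at d10 and 104.2 at d14, a difference of 1.90. Pilra, an inhibitory receptor of myeloid cells, stood at 0.99, the surface glycoprotein Cd52 at 0.96, Igsf6 at 0.94 the inhibitory lectin Clec12a at 0.86 and the inhibitory receptor Lilr4b at 0.79. The adaptor Tyrobp (0.74), the actin bundler Lcp1 (0.73), the GTPase Rac2 (0.67) and the myeloid transcription factor Spi1, which is PU.1 (0.66), were higher too. Spi1 had 152.0 at d7, 255 at d10 and 172.6 at d14. For 16 of the 18 genes d10 was the highest array, where the rule had already placed it above d7 and d14. Cd68, a lysosomal protein of macrophages, was an exception, with 1346 at d1 and 1068 at d3 against 306 at d7, 431 at d10 and 253 at d14, so that its d10 value was well below its early ones at a difference of 0.63.

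Macrophage and monocyte genes lay above both flanks in 16 of 18 cases, against 43.6% of all kept genes. Their median was 0.27 and 2 were called higher, against 0.653% of all kept genes. Mpeg1, a pore-forming protein, was at 0.47 and the mannose receptor Mrc1 at 0.34, while Csf1r, the receptor that keeps macrophages alive, was at 0.09. The summed intensity of 7 macrophage markers was 2321 at d7, 2806 at d10 and 2222 at d14. That of 13 neutrophil markers was 3099, 10021 and 2206. For 5 T cell markers it was 430, 388 and 418, and none lay above both flanks. Nkg7, a granule protein of cytotoxic cells, was higher at 0.67, although it passed the filter through d10 alone and is 1 of only 3 kept T and NK cell genes, and the T cell receptor chains Cd3e and Cd247 were at -0.22 and -0.24. Of the 5 B cell markers on the array none was called, although Cd79a, of the B cell receptor, stood at 0.58 below the filter, and the 6 mast cell markers had a median of 0.00. The part of these cell types in the other differences was not tested.

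**Figure D3:**
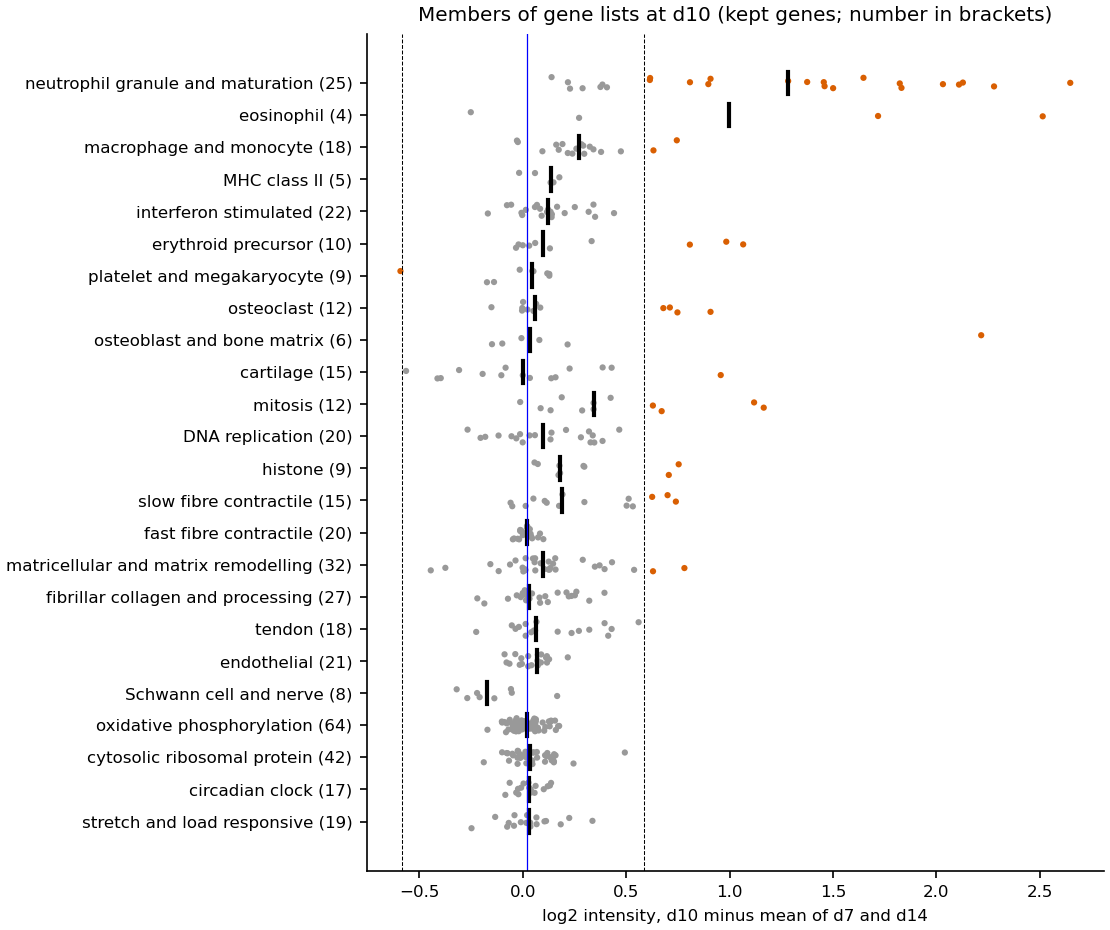
Difference at d10 (x axis, log2) of the kept members of 24 gene lists (y axis), 1 point per gene, orange past 1.5-fold. Black bars are list medians, the blue line is the median of all kept genes at 0.02 and the dashed lines are at 1.5-fold. The neutrophil list reaches 2.65 with a median of 1.28, whereas the osteoclast, erythroid and bone lists hold a few distant members and a median of 0.10 or less.

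Of 15 slow fibre genes 3 were called higher at d10, against 0.653% of all kept genes, and all 3 were higher still at d3. Tnni1, the slow troponin I, had 536 at d7, 794 at d10 and 422 at d14, a difference of 0.74, against 1136 at d3. Tnnc1, the slow and cardiac troponin C, stood at 0.70 and the slow myosin heavy chain Myh7 at 0.63, with 270 at d7, 435 at d10, 295 at d14 and 776 at d3. In each of these 3 genes d3 was the highest array. Over the whole list 10 of 15 lay above both flanks, against 43.6% of all kept genes, with a median of 0.19 and a lowest value of -0.06. Tnnt1 (0.53), Atp2a2 (0.51) and Myl2 (0.50) were short of the threshold. The fast counterparts in the list of 20 lay between -0.05 and 0.10.

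Connective tissue genes called higher were Postn, a matricellular protein of repair, the Wnt-binding Sfrp4 and the adhesion molecule Vcam1. Postn had 620 at d7, 957 at d10 and 617 at d14, a difference of 0.63, below its 1590 at d3. Sfrp4 had 194.0, 363 and 224, a difference of 0.80, and d10 was its highest array. Of 32 kept matricellular and remodelling genes 2 were higher, against 0.653% of all kept genes, with a list median of 0.10. Fibronectin (Fn1) was at 0.54 and asporin (Aspn) at 0.43. The 27 fibrillar collagen and processing genes had a median of 0.03 and none was called, and Col1a1, the main collagen of tendon and bone, had 1392 at d7, 1663 at d10 and 1401 at d14, a difference of 0.25. The 18 tendon genes stood at a median of 0.06, and none was called.

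Among the genes without a group were 3 of the largest differences. Ly6a2, of the Ly6 family, had 166.0 at d7, 727 at d10 and 114.0 at d14, a difference of 2.40 or 5.28-fold. Ctse, the endosomal protease cathepsin E, had 198.6, 842 and 205, a difference of 2.06, and 422 at d3. The unnamed clone F630028O10Rik stood at 1.53. Lgi1, a secreted protein known from neurons, was at 0.83 with 128.1 at d7, 225 at d10 and 126.1 at d14. Emb, an adhesion protein that accompanies lactate transporters, was at 0.83, but its highest value was at d1.

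A low d7 array accompanied part of the set. In 17 of the 79 higher genes d7 was the lowest of all 7 arrays, 10 of them among the 17 without a group. In others, such as Ear6 and S100a9, d14 was the lowest. The rule favours genes with a low flank, and the share over all kept genes was not counted. Npm1, the nucleolar chaperone nucleophosmin, had 328 at d7 and 668 at d10 against 485 to 629 on the remaining arrays, so it lay 1.03 above d7 and 0.30 above d14. Zfp931 (1.07 and 0.28), the small nucleolar RNA Snord73b (0.94 and 0.29), the fatty acid elongation enzyme Hacd3 (0.84 and 0.35) and the Y RNA Rny1 (0.84 and 0.41) had the same pattern. Of the ribosome biogenesis list, to which Npm1 belongs, 1 of 32 genes was called and the median was 0.04. Hmox1, the heme-degrading oxygenase, was at 0.60, with 198.3 at d7, 323 at d10 and 229 at d14.

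The 20 lower genes were of another kind. They had a median difference of -0.64, 19 of them lay in the lower part of the intensity range, and only Treml1 was in any of the 50 gene lists. Vpreb2, a surrogate light chain of B cell precursors, had 171.3 at d7, 75.6 at d10 and 150.1 at d14, a difference of -1.08. Ms4a10, a membrane protein of the MS4A family, had 165.5, 83.8 and 119.6 (-0.75). Gpr6, a receptor of the brain (-0.69), the retrogene Rps23rg1 (-0.69), Lhb, the beta subunit of luteinizing hormone (-0.67), the axonal adhesion molecule Cntn2 (-0.67) and the neuropeptide relaxin-3 (Rln3, -0.65) followed. Rhox9 (-0.62), Cfap43, a protein of the sperm tail (-0.61), Igdcc3 (-0.61), the transcription factor Ascl5 (-0.60) and the atypical kinase Prkcz (-0.60) completed the named genes. Predicted genes, clones, olfactory receptors and miRNA genes made up the other 7. For Prkcz a further row of probes stood at 0.10 and for Cfap43 one of 4 further rows at 0.16.

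The lower genes leaned on d7, whereas 31 of the 79 higher genes lay farther from d7 than from d14. The d7 array was the highest of the 7 for 16 of the 20, and 19 of 20 were farther below d7 than below d14. For lower genes the rule favours a high flank, and the share over all kept genes was not counted. The rule already placed d10 below d7 and d14, and in 19 of the 20 d10 was the lowest of all arrays. Only 6 were 1.5-fold below each of d7 and d14. Of the 20, 1, Vpreb2, lay 1.5-fold below each of the 6 other arrays (0.00826% of all kept genes). Against d14 alone 7 genes were lower by the rule and against d7 alone 106, while the higher genes numbered 78 and 97. Low intensity accompanied these calls. Of the 2421 kept genes with the lowest values in the flanking arrays, 11 were lower and 38 higher, and of the 2421 brightest 0 and 1. The median difference was -0.04 among the former and 0.02 among the latter. Over 1231 olfactory, vomeronasal and taste receptor genes, best known from sensory tissue, the median was -0.09, and 54.7% lay below both flanks against 37.3% of all genes on the array. Whether these low signals belong to the named transcripts was not tested.

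**Figure D4:**
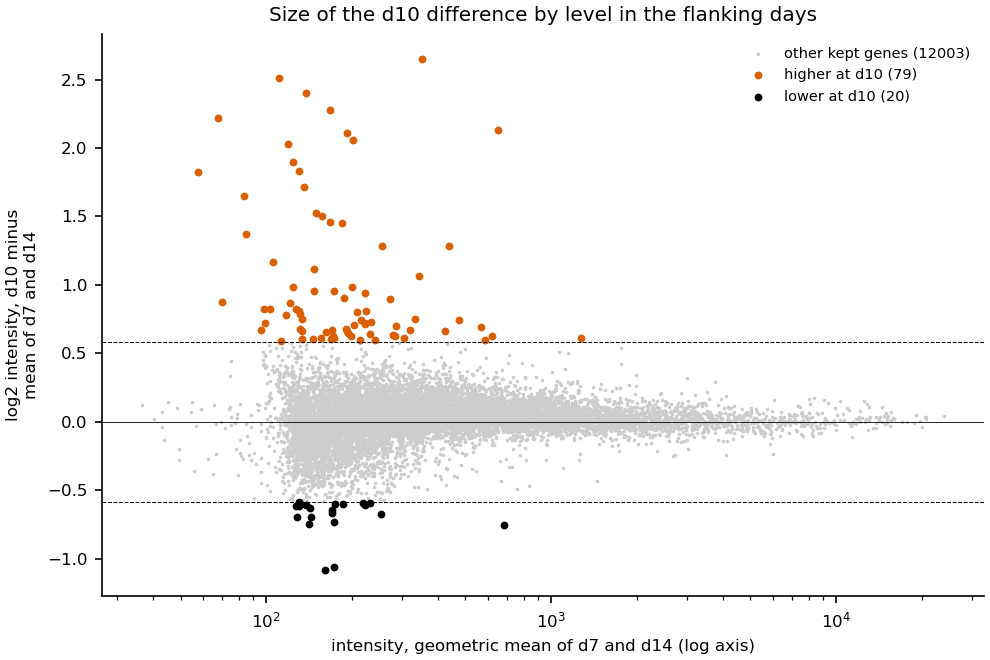
Difference at d10 (y axis, log2) against the geometric mean intensity of d7 and d14 (x axis, log scale), 1 point per kept gene, with dashed lines at 1.5-fold. The 79 higher genes (orange) reach 2.65, and the 20 lower genes (black) lie between -1.08 and -0.59, all but 1 of them at the dim end.

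The same rule applied to d3 against d1 and d5, which share no array with this comparison, called 15 genes higher (0.124%) and 4 lower (0.0331%). Of the 15 genes higher at d3, 12 were also higher at d10, which is 80% of the d3 genes and 15.2% of the d10 genes. They were Ctse, H2ac15, Lcn2, Ly6a2, Ly6g, Mki67, Myh7, Ngp, Postn, S100a8, S100a9 and Tnnc1, of which 7 are outside the granulocyte lists. Ibsp, Clec3a, Slc4a1, Car1 and the osteoclast genes were not among them. Slc4a1 fell just short of the threshold, with a difference at d3 of 0.57. Its intensity was 533 at d3 against 395 at d1 and 325 at d5. The difference at d3 was 0.35 for Clec3a, 0.20 for Car1 and 0.19 for Ibsp. Ibsp had 76.0 at d3 against 69.8 at d1 and 63.9 at d5. The called osteoclast genes lay between Acp5 at -0.08 and Ctsk at 0.24. No gene was lower in both comparisons.

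Several other lists had medians close to that of all kept genes at d10. The 17 circadian clock genes had a median of 0.03 and none was called. The same held for 28 heat shock genes (0.04), 19 stretch and load responsive genes (0.03), 19 atrophy and FoxO genes (0.02), 32 proteasome subunits (0.04) and 21 endothelial genes (0.07). Schwann cell and nerve genes lay lower, with a median of -0.17. Of 8 kept members 5 lay below both flanks, against 25.2% of all kept genes, and none was called. The list median was -0.06 against d7 alone and -0.27 against d14 alone. In this list the neurotrophin receptor Ngfr was at -0.32, and myelin basic protein (Mbp) at -0.21. Mbp had 288 at d7, 291 at d10 and 394 at d14, so it was not below d7. Interferon-stimulated genes had a median of 0.12 over 22 genes and MHC class II genes one of 0.13 over 5, with Cd74, the invariant chain, at 0.18, and no member of either was called.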

How the data were processed

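Each of the 7 time points was 1 array, hybridised with RNA pooled from 6 mice, as the labels and the series' design text say. The authors deposited intensities on a linear scale, 1 per row and array per the series matrix. For background correction, normalization, probe summary and genome build, the method is not given in the sources used here. Labels and design text differ on the amount of RNA used. The submitters' processing notes name Partek. No detection call per probe is reported.

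The log2 of each intensity was used, with no pseudocount added. Of 35556 rows, 21789 had 1 gene symbol in the platform annotation, 1621 had several and 12146 had none. Where a gene had several rows, the row of highest mean stood for it, which gave 19938 genes. A gene was kept when it reached the array median on at least 1 array. No test was made, since there are no replicates. Of the kept genes, 55.5% hold the same intensity on at least 2 arrays, to 1 decimal, and 7.95% at d7 and d14, and these repeats are part of the spread given.

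The comparison, the 50 gene lists and the alternatives were chosen with earlier results of these data known. Names were given to the 6 granulocyte and 20 other genes with the largest difference, the 15 lowest, up to 4 members of lists with a median at least 0.1 from all genes or 2 called members, and muscle markers. This choice left out clones, predicted genes, antigen receptor segments, sensory receptors and small RNAs. Other genes were named after their values were seen, as list members, as parts of small counts or by role. Older symbols were matched through RefSeq synonyms for 29 list entries. Promoters are from RefSeq, build GRCm38.p6. The alternatives were other filters, normalizations, thresholds, flanking arrays, row choices and means, and a pseudocount of 16. Rules asking for 1.5-fold from every single array were added after the data were seen. The script was tested on simulated data. Python 3.11.15, numpy 2.4.6, pandas 2.3.3 and matplotlib 3.10.9 were used.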

Additional observations from a re-analysis of the deposited data

How the results depend on the processing

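The 79 genes higher at d10 changed by less than 1.5 times in number under no filter, a filter on the other 6 arrays, equal array medians, quantile normalization, a pseudocount of 16, the mean of rows, the mean of intensities, the mean of 3 or 6 other arrays or 1.5-fold from each flank, with 60 to 105 genes. They were 40 with a filter at percentile 75, 24 at 2-fold, 355 at a fold threshold below 1.5 and 24 at 1.5-fold from each of the 6 other arrays. Leaving out d7 or d14 gave 78 and 97. The 20 genes lower at d10 were less stable. They were 72 with no filter, 1 with a filter at percentile 75, 12 with equal array medians, 2 at 2-fold, 393 at a fold threshold below 1.5, 11 against the 6 other arrays, 13 against d5, d7 and d14, 9 with a pseudocount of 16, 6 at 1.5-fold from each flank and 1 at 1.5-fold from each other array. Leaving out d7 or d14 gave 7 and 106. Of the 79 higher genes, 67 remained past the threshold against d14 alone and 72 against d7 alone, and of the 20 lower genes 7 and 19. After quantile normalization 66 of the 79 higher and 13 of the 20 lower genes remained past it. Cd68 reversed, to -0.34 against the mean of the 6 other arrays. Over all alternatives, the differences of named genes moved by less than the robust SD of d7 minus d14 in 898 cases and by more in 132, and list medians in 137 and 18. The cause was not tested. No paired analysis was possible because each time point is 1 array. Low signals near the array median limit the lower genes most.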

Other observations

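Rows outside the gene table differed at d10 more often than named rows. Of 5347 kept rows with no symbol, 372 were higher (6.96%) and 148 lower (2.77%) by the same rule, against 0.698% and 0.158% of 13322 kept rows with 1 symbol. Of 1153 kept rows with several symbols, 26 were higher (2.25%) and 0 lower. What the unnamed rows measure is not given in the sources used here.

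Exact repeats of an intensity were common. Of the 12102 kept genes, 3226 (26.7%) held 1 value on at least 3 arrays, and 962 held 1 value at d7 and d14. A repeat on at least 2 arrays was present in 18 of the 79 higher genes (22.8%) and 11 of the 20 lower genes (55.0%). Of all kept genes, 6716 (55.5%) held such a repeat. None of the 99 called genes repeated its d10 value on another array.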
